A study of Mus musculus with 4 samples.

Results

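Chemokine ligands are small secreted proteins that guide leukocytes, and the rows of the count table whose symbol begins with Ccl, Cxcl, Xcl or Cx3cl and ends in a number with at most 1 letter from a to e were taken as the family. The rule found 46 of 55487 rows, with 40 symbols, since Ccl19, Ccl21 and Ccl27 copies on the reference scaffolds repeat a symbol. RNA of whole mammary fat pad (MFP), the adipose depot in which the mammary ducts grow, was sequenced from female C57BL/6J mice. The aged-MFP samples came from mice of 14 months and the young-MFP samples from mice of 8 weeks, with 2 samples labelled as biological replicates at each age. The labels name no transgene or treatment, and state neither which pad was taken nor how many mice a sample holds. The comparison asks how the fat pad that receives tumour cells differs with age, here in its chemokine transcripts.

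Chemokines are grouped by the spacing of their first cysteines into the CC, CXC, C and CX3C classes, and each binds one or more G protein-coupled receptors on the cells it attracts. The homeostatic lymphoid chemokines place lymphocytes: CCL19 and CCL21 bind CCR7 on T cells and dendritic cells, and CXCL13 binds CXCR5 on B cells. Most other members are induced in inflammation or are secreted by stromal, epithelial or macrophage-lineage cells. The inguinal fat pad of the mouse normally encloses a lymph node.

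Promoter sequence is shown for Cxcl13, Ccl19, Ccl22 and Cxcl10, which are among the members that share 1 order of the 4 libraries, for Ccl17 as a neighbour of Ccl22, and for Cxcl1, with Cxcl10, as a member with matches to the NF-kB consensus. RefSeq promoters on GRCm38.p6, from 250 bases before to 50 bases after the transcription start, were found for 28 chemokine symbols with 34 promoters. They are written 5′ to 3′ on the gene's strand. Capitals mark matches to the NF-kB consensus (Cxcl1, Cxcl10), to the interferon-stimulated response element, GAAA then any 2 bases then GAAA (Ccl19, Cxcl10), and to the GAS element TTCNNNGAA (Ccl17).
Cxcl13, chr5:95956689-95956988 (+): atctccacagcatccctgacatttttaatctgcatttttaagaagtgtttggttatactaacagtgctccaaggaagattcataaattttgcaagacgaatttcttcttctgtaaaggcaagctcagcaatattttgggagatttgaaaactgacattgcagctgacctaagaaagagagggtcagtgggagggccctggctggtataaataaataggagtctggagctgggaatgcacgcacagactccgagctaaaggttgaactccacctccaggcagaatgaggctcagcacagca
Ccl19, chr4:42756316-42756615 (-): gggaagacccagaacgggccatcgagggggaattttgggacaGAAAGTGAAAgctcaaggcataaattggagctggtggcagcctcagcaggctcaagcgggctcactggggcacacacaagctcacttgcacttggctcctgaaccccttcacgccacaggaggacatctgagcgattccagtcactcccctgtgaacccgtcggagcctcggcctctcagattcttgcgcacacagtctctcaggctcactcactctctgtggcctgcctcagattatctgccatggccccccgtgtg
Ccl22, chr8:94745434-94745733 (+): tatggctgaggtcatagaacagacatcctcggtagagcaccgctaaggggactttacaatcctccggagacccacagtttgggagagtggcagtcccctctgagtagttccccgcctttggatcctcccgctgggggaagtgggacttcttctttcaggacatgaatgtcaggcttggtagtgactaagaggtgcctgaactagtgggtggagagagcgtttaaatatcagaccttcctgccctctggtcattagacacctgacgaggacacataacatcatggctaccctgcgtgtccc
Ccl17, chr8:94810203-94810502 (+): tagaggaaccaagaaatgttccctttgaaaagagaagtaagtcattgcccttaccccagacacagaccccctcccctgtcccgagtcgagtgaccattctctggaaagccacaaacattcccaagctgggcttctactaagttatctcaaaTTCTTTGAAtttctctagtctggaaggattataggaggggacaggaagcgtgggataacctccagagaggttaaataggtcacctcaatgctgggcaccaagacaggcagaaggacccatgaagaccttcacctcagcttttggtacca
Cxcl10, chr5:92348840-92349139 (-): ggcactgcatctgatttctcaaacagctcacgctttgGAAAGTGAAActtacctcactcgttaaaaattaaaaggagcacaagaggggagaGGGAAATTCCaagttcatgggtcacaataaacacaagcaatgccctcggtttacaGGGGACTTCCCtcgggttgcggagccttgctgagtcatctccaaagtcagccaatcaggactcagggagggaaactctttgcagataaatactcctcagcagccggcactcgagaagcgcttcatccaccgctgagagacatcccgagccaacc
Cxcl1, chr5:90890995-90891294 (+): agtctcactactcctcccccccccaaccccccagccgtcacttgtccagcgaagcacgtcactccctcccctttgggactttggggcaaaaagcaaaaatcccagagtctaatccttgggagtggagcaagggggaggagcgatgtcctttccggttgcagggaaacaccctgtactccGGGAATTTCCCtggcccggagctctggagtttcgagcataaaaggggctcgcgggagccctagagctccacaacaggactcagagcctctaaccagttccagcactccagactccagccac

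All motifs were searched on both strands. A match to the NF-kB consensus lay in 8 of the 34 chemokine promoters (23.5%) and in 8.46% of all 32851 promoters of that length. In Cxcl1 it spanned bases -71 to -61 from the start, as a pair of overlapping matches. In Cxcl10 matches spanned -159 to -150 and -104 to -94. The interferon-stimulated element lay in 3 of the 34 promoters (8.82%) against 3.44% of all, at -208 to -199 in Ccl19 and at -213 to -204 in Cxcl10. The GAS element lay in 2 (5.88%) against 8.3%, at -99 to -91 in Ccl17. Ccl22, Cxcl13 and Xcl1, which shares that order and is not printed, held none of these letters in the window. A match describes letters only, and no binding was measured.

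The libraries held 68803304 to 98402403 counts, so 3 counts, taken here as the detection floor, equalled 0.0337 to 0.0407 CPM (counts-per-million of the library total, scaled by the trimmed mean of M-values, TMM). Intervals and floors cover counting error only. Adipocyte markers and mammary epithelial markers (824 to 1993 CPM) were both present in every library. All 6 adipocyte markers and all 6 skeletal muscle markers had a log2 fold change above 0. The adipocyte sum was 10018 and 7843 CPM in the aged and 6006 and 6354 CPM in the young libraries, and the muscle sum 14980.1 and 29261 CPM in the aged and 4257 and 6730.4 CPM in the young libraries (median log2 fold changes 0.48 and 2.00, and 0.44 and 1.68 without young replicate 1). Fibroblast markers summed lower in the aged (1946 and 1419 CPM) than in the young libraries (3126 and 3660.3 CPM), a sum made up mostly of Col1a1 and Col3a1. The list was split, with 4 markers below 0 and 2 above, Dcn (log2 fold change 1.33) and Pdgfra (0.73). Young replicate 1 stood apart: 689 genes were more than 4-fold above every other library on log2 CPM there, against 12 to 66 in the others. Young replicate 2 had the most genes more than 4-fold below every other library, 135 against 14 to 70. All the marker values that follow are given by library. All 8 B cell markers were highest in young replicate 1, with summed levels of 5.28 and 66.8 CPM in aged replicates 1 and 2 and of 651 and 3.79 CPM in young replicates 1 and 2. The 8 T cell markers followed with 11.4, 54.4, 741 and 4.92 CPM in the same library order, and no marker of either list was at 0 in all libraries. Of 8 lymph node stroma markers 7 were in the table and all 7 were highest in young replicate 1, where Glycam1, a mucin of high endothelial venules, had 34255 counts against 29 in aged replicate 2 and 0 in the remaining libraries. Clu and Il7 of that list were only 2.04 and 1.69 times the next library. Lymphatic endothelial markers went the other way, with 0 of 6 highest in young replicate 1. They summed to 49.7 and 52.2 CPM in the aged and 34.1 and 57.8 CPM in young replicates 1 and 2. Fold changes are therefore given with and without young replicate 1, and the part of these cell populations in each result was not tested. Values without young replicate 1 set both aged libraries against young replicate 2 alone, so they rest on that 1 library. In bulk tissue, fewer cells of a type and less RNA per cell cannot be told apart.

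The 46 rows divided into 11 at 0 in every library, 8 with counts too low to be tested and 27 that entered the edgeR quasi-likelihood test of aged against young. Summed over the family, chemokine transcripts measured 501 and 536 CPM in the aged and 535 and 400.2 CPM in the young libraries, and these ranges overlap. None of the 27 tested ligands passed an adjusted p of 0.05, as was so for all 22485 genes tested (0%). At an unadjusted p under 0.05, Cxcl15 and Ccl11 were higher in aged-MFP, where 7.24% of all genes were, and Ccl2 was lower, where 3.31% were. DESeq2, the program the study used, called Ccl11 (adjusted p = 5.87e-06) and Cxcl15 (adjusted p = 6.02e-07), both higher in aged-MFP, where it called 3.17% of 22385 genes higher. Both aged libraries lay above both young in 8 of the 27 ligands (23.3% of all genes) and below both in 2 (22.8%), so the ages overlapped in the other 17.

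The balance of higher and lower ligands depended on 1 library. With all 4 libraries 13 ligands had a log2 fold change above 0 and 14 below (47.0% of all genes were above 0), with a median of -0.01 beside -0.04 over all genes. Without young replicate 1, 21 of 28 tested ligands were above 0 and 7 below (52.0% of all genes were above), with a median of 0.46 beside 0.02 over all genes. Again 0 of 23357 genes passed the adjusted threshold. At an unadjusted p under 0.05, Cxcl15, Ccl11, Cxcl16, Cxcl9 and Ccl19 were then higher in aged-MFP, 5 ligands where 7.24% of all genes were, and Ccl2 was the 1 lower, where 4.88% were.

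**Figure D1:**
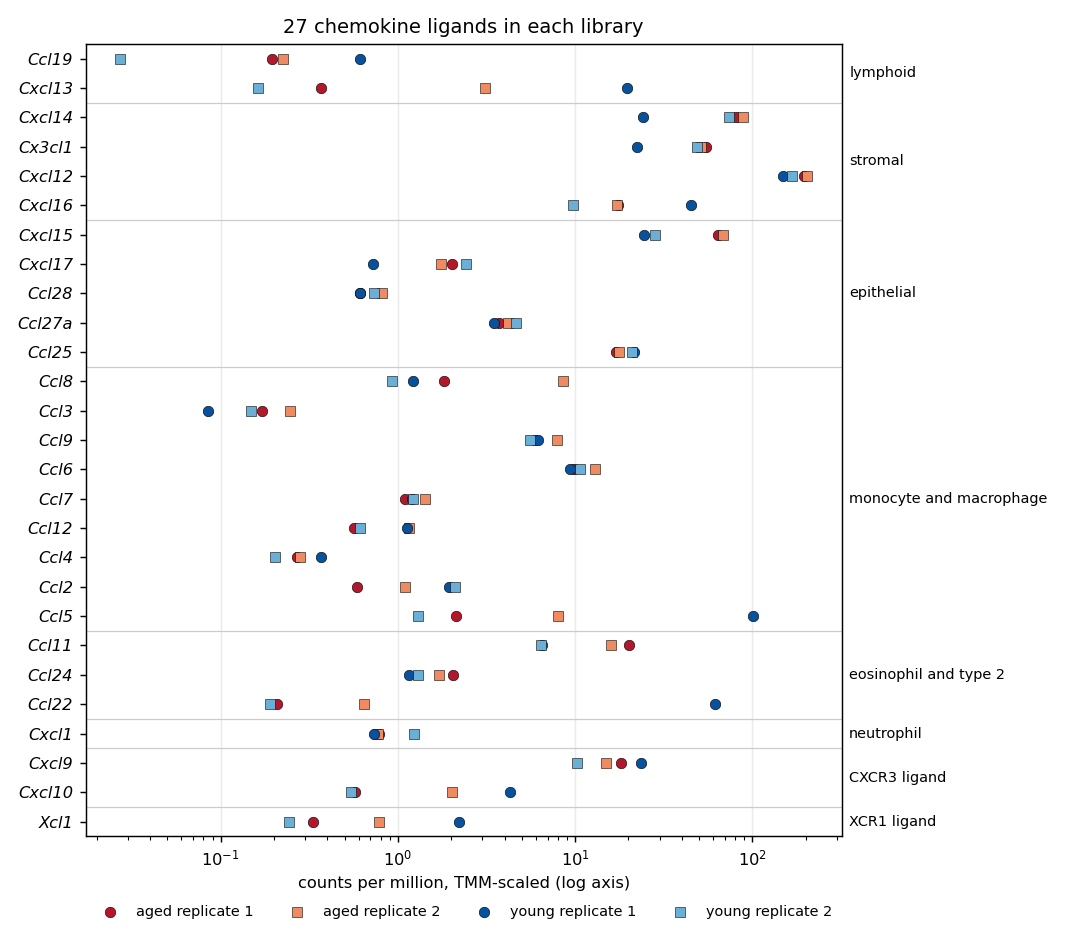
Level of each of the 27 tested chemokine ligands in each library, in TMM-scaled CPM on a log axis, with the ligands grouped by role; each point is 1 library. Ccl22, Ccl5 and Cxcl13 of young replicate 1 lie far to the right of the other libraries, while both aged points of Ccl11 and Cxcl15 lie to the right of both young points.

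**Figure D2:**
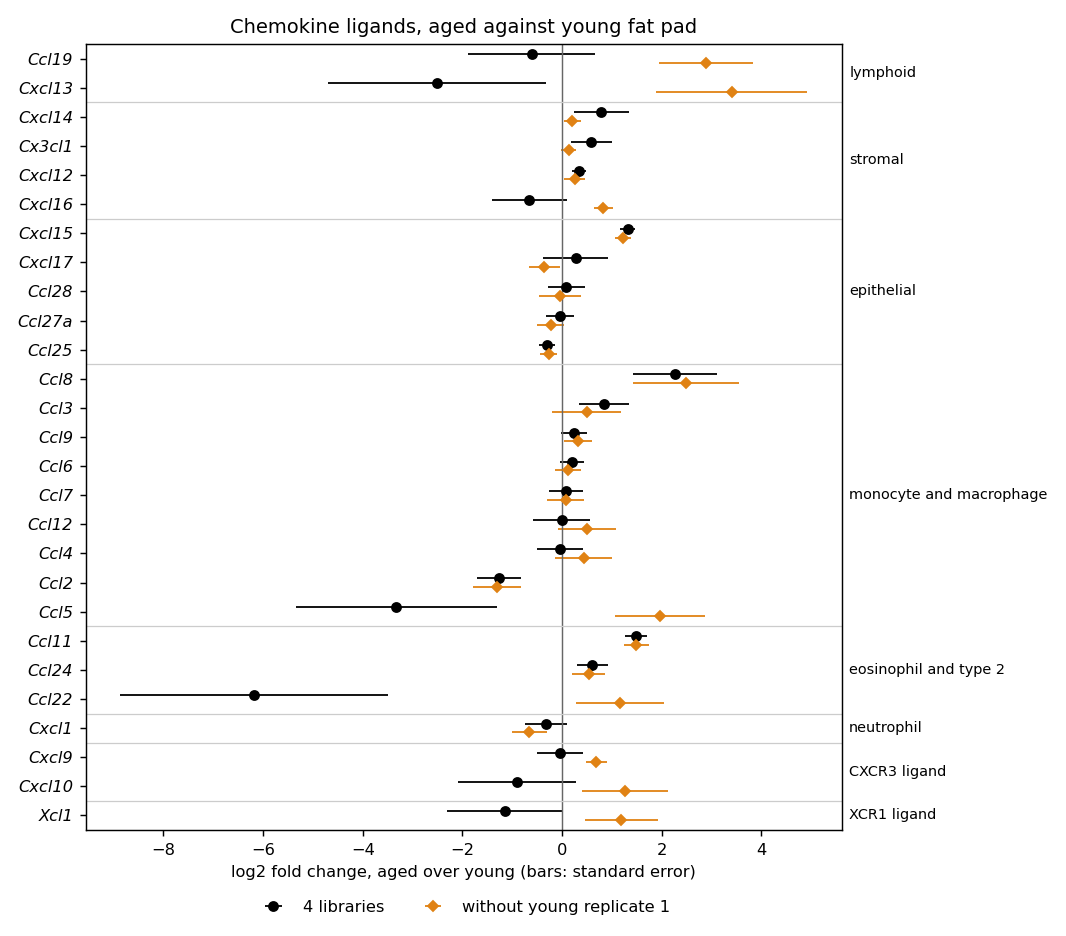
log2 fold change of aged over young-MFP for each tested ligand with its standard error, from all 4 libraries (black circles) and without young replicate 1 (orange diamonds). When that library is left out 12 ligands change sign (Ccl19, Cxcl13, Ccl5, Ccl22, Cxcl10, Xcl1, Cxcl16, Cxcl9, Cxcl17, Ccl4, Ccl12 and Ccl28). The other ligands, Ccl11, Cxcl15 and Ccl2 among them, stay on their side.

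The lymphoid group was read first. Cxcl13, the B cell follicle chemokine on chromosome 5 (95956951 to 95961068), measured 0.367 and 3.1 CPM in aged replicates 1 and 2 and 19.7 and 0.163 CPM in young replicates 1 and 2. Its highest and lowest libraries were both young, and the ages overlapped. Aged over young, the log2 fold change was -2.51 (SE 2.19, edgeR adjusted p = 0.645) with 4 libraries and 3.40 (SE 1.52, edgeR adjusted p = 0.465) without young replicate 1.

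Ccl19, which binds CCR7, lies on chromosome 4 (42754525 to 42756577). It was counted 16 and 20 times in the aged and 50 and 2 times in the young libraries, or 0.196, 0.225, 0.61 and 0.0271 CPM. The last value lies under the 3-count floor, and again the young libraries were both the highest and the lowest. The log2 fold change was -0.61 (SE 1.28, edgeR adjusted p = 0.854), and 2.89 (SE 0.95, edgeR adjusted p = 0.38) without young replicate 1, a value that rests on the 2 counts of young replicate 2. Reads of Ccl19 are uncertain, since 475 of its 914 windows of 50 bases (52.0%) also occur in transcripts of other genes. Among these copies, the pseudogene Gm12407 had 1 and 23 counts in the aged against 158 and 0 in the young libraries, the same order of the young libraries as Ccl19.

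Ccl21a, the principal CCR7 ligand of lymphoid tissue, was at 0 in all 4 libraries in both rows of that symbol, as were all 5 rows of Ccl21b, Ccl21c and Ccl21d. A count of 0 allows up to 3 counts, or 0.0337 to 0.0407 CPM. Of the 821 windows of 50 bases in Ccl21a, 588 (71.6%) also occur in other genes, and Ccl21b and Ccl21d shared 100% and 97.1% of theirs. The window below, given to show this sharing, is a stretch of Ccl21a on GRCm38 whose bases are all identical in Ccl21b, Gm10591, Gm13304 and Gm21541. Gm21541 is another name of the gene in the Ccl21d row, and Gm10591 and Gm13304 were also at 0 in all 4 libraries. A read from this window has no single position, and how reads with several positions were counted is not given in the sources used here. The 0 of Ccl21a is for that reason not read as an absent transcript.
Ccl21a, chr4:42773869-42773918 (-): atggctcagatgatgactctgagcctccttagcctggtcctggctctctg

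Of the 27 tested ligands, 7 shared 1 order of the libraries, highest in young replicate 1, then aged replicate 2, aged replicate 1 and young replicate 2, which 7.23% of all genes had. These were Cxcl13, Ccl19, Ccl22, Ccl5, Ccl4, Cxcl10 and Xcl1, named here after their values were seen. The B cell and T cell marker sums above have the same order. Young replicate 1 was the highest library for 10 of the 27 ligands (34.1% of all genes) and the lowest for 11 (33.8%), and it exceeded every other library more than 4-fold for Cxcl13, Ccl22 and Ccl5 (3.17% of all genes).

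**Figure D3:**
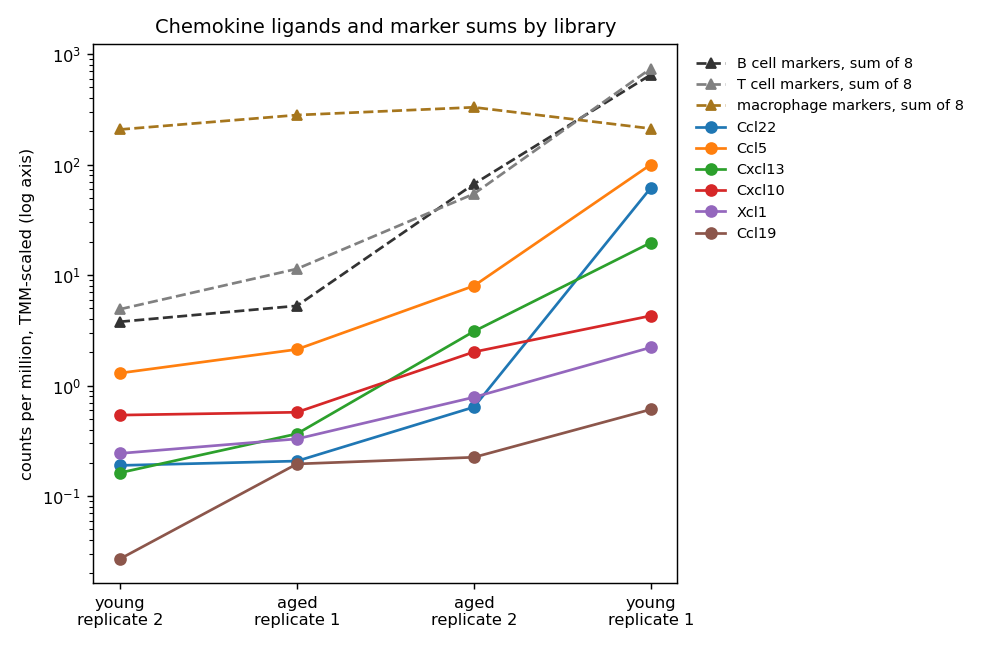
TMM-scaled CPM, on a log axis, of 6 chemokine ligands (solid lines) and of the summed B cell, T cell and macrophage markers (dashed lines) in the 4 libraries, ordered from young replicate 2 to young replicate 1. The 6 ligands and both lymphocyte sums climb in the same library order, and the macrophage sum stays between 208 and 330.2 CPM.

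Ccl22, which attracts CCR4-bearing T cells and is made by dendritic cells and macrophages, showed the widest gap. It was counted 17 and 57 times in the aged and 5059 and 14 times in the young libraries, or 0.208, 0.64, 61.7 and 0.19 CPM. Young replicate 1 was 96.4 times the next library and 325 times its own replicate. Its log2 fold change of -6.18 (SE 2.69, edgeR adjusted p = 0.504) became 1.16 (SE 0.88, edgeR adjusted p = 0.63) without it. Ccl22 (chromosome 8, 94745590 to 94751699) and Ccl17, the other CCR4 ligand (94810453 to 94812036), flank Cx3cl1 (94772009 to 94782427). Ccl17 had 1 and 3 counts in the aged against 77 and 0 in the young libraries and was not tested. Cx3cl1, between them, was lowest in young replicate 1.

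Ccl5, a T cell and macrophage product on chromosome 11 (83525778 to 83530518), measured 2.13 and 8 CPM in the aged and 100.2 and 1.3 CPM in the young libraries. Young replicate 1 was 12.5 times the next library. Its log2 fold change was -3.33 (SE 2.02, edgeR adjusted p = 0.559), and 1.96 (SE 0.90, edgeR adjusted p = 0.473) without that library. Xcl1, which attracts XCR1-bearing dendritic cells, was counted 27 and 70 times in the aged and 182 and 18 times in the young libraries (log2 fold change -1.14, SE 1.16, edgeR adjusted p = 0.691). Without young replicate 1 the value was 1.19 (SE 0.73).

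The ligands of CXCR3, a receptor of activated T cells and natural killer cells, are induced by interferon gamma. Cxcl9 (chromosome 5, 92321347 to 92328079) measured 18.2 and 14.9 CPM in the aged and 23.6 and 10.2 CPM in the young libraries. The aged values lay between the young ones (log2 fold change -0.04, SE 0.46, edgeR adjusted p = 0.976), and the value without young replicate 1 was 0.69 (SE 0.22, edgeR adjusted p = 0.376). Cxcl10 measured 0.575 and 2.02 CPM in the aged and 4.29 and 0.542 CPM in the young libraries, with a log2 fold change of -0.90 (SE 1.18, edgeR adjusted p = 0.759), or 1.26 (SE 0.86) without young replicate 1. Cxcl11, annotated as a polymorphic pseudogene, had 8 and 5 counts in the aged against 2 and 1 in the young libraries and was not tested. Cxcl10 and Cxcl11 overlap Art3 on the opposite strand. Natural killer cell markers summed to 4.71, 11, 47.8 and 4.92 CPM in aged replicates 1 and 2 and young replicates 1 and 2.

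The eosinophil chemokines were of another kind, with close replicates. Ccl11, or eotaxin, binds CCR3 and lies on chromosome 11 (82057823 to 82062955). It measured 20.2 and 15.9 CPM in the aged and 6.54 and 6.44 CPM in the young libraries, with means of 18.1 ± 3.03 and 6.49 ± 0.0719 CPM (SD, n = 2 each). Both aged libraries were more than the spread between replicates above both young ones. The log2 fold change was 1.48 (SE 0.22, edgeR adjusted p = 0.36, DESeq2 adjusted p = 5.87e-06), and 1.49 (SE 0.25, edgeR adjusted p = 0.261) without young replicate 1. The adipocyte, muscle and macrophage marker sums were also higher in both aged libraries, and their part in this result and in those of Cxcl15 and Cxcl12 was not tested. Ccl24, another CCR3 ligand, measured 2.04 and 1.71 CPM in the aged and 1.15 and 1.3 CPM in the young libraries (log2 fold change 0.61, SE 0.32, edgeR adjusted p = 0.532), without overlap, and the value was 0.53 (SE 0.34) without young replicate 1. Ccl26 and Ccl1, the remaining members of this group, had 0 to 1 and 0 to 9 counts and were not tested, and Ccr3 itself had 0 and 17 counts in the aged against 8 and 5 in the young libraries.

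Of the monocyte and macrophage chemokines all 9 entered the test, 5 above 0 and 4 below, with a median of 0.07. Without young replicate 1, 8 were above 0 and 1 below, with a median of 0.43. Ccl2, which recruits CCR2-bearing monocytes, was the one lower in aged-MFP at an unadjusted p under 0.05. It was counted 48 and 98 times in the aged and 160 and 154 times in the young libraries, or 0.587, 1.1, 1.95 and 2.09 CPM, so both aged libraries lay below both young. The log2 fold change was -1.26 (SE 0.44, edgeR adjusted p = 0.465, DESeq2 adjusted p = 0.196) and -1.30 (SE 0.48) without young replicate 1. Its receptor Ccr2 did not separate by age, with 10.1 and 12.7 CPM in the aged and 12.3 and 10.7 CPM in the young libraries.

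Ccl8, a chemokine of tissue macrophages in the same cluster as Ccl2 on chromosome 11 (82115185 to 82116799), measured 1.82 and 8.55 CPM in the aged and 1.22 and 0.921 CPM in the young libraries. Both aged libraries lay above both young ones, but aged replicate 2 was 4.69 times aged replicate 1. Its log2 fold change of 2.27 (SE 0.84, edgeR adjusted p = 0.477) was the most positive among the 27 tested ligands, and it was 2.49 (SE 1.06) without young replicate 1. All 9 ligands of the group were higher in aged replicate 2 than in aged replicate 1, as were 20 of the 27 tested ligands, against 50.7% of all genes. The neighbours Ccl7 and Ccl12 had log2 fold changes of 0.07 (SE 0.34) and -0.01 (SE 0.57), and of 0.07 (SE 0.37) and 0.50 (SE 0.58) without young replicate 1. Ccl6 and Ccl9, made constitutively by macrophages, measured 9.4 to 13 and 5.54 to 7.88 CPM over the 4 libraries (log2 fold changes 0.19 and 0.24, SE 0.24 and 0.26, and 0.11 and 0.32, SE 0.26 and 0.29, without young replicate 1). Ccl3 and Ccl4, induced in activated macrophages, stayed at or under 30 counts in every library (log2 fold changes 0.84 and -0.05, SE 0.51 and 0.46, and 0.49 and 0.43, SE 0.70 and 0.58, without young replicate 1). Macrophage markers summed to 281 and 330.2 CPM in the aged and 212 and 208 CPM in the young libraries, and all 8 had a log2 fold change above 0.

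Among epithelial and barrier chemokines, Cxcl15 (lungkine), a mouse chemokine of mucosal epithelium on chromosome 5 (90794534 to 90803067), differed most. It measured 63.6 and 68.3 CPM in the aged and 24.6 and 28.3 CPM in the young libraries, with means of 65.9 ± 3.34 and 26.4 ± 2.61 CPM (SD, n = 2 each). The gap between the ages was larger than the spread between replicates. The log2 fold change was 1.32 (SE 0.15, edgeR adjusted p = 0.36, DESeq2 adjusted p = 6.02e-07), and 1.22 (SE 0.16, edgeR adjusted p = 0.241) without young replicate 1. The summed mammary epithelial markers did not order the libraries this way, at 1478 and 1462 CPM in the aged and 824 and 1993 CPM in the young libraries. Within that list Krt8, Krt18, Krt19 and Epcam overlapped between the ages, but Krt5 and Krt14 did not. Krt5 measured 74.9 and 86.2 CPM in the aged and 12.1 and 50.9 CPM in the young libraries. Krt14 measured 48.6 and 50.6 CPM in the aged and 8.47 and 34.1 CPM in the young libraries. The part of epithelial cells in the Cxcl15 result was not tested.

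Ccl25, the CCR9 ligand, measured 17 and 17.7 CPM in the aged and 21.6 and 20.9 CPM in the young libraries, without overlap (log2 fold change -0.30, SE 0.16, edgeR adjusted p = 0.541, and -0.27, SE 0.17, without young replicate 1). It overlaps Elavl1 on the opposite strand, and without the strand setting of the counting the reads of both cannot be told apart. The same limit applies to Ccl2, Ccl6, Ccl19, Ccl21a, Ccl21d, Ccl27a, Cxcl15, Cxcl17 and Xcl1, which also overlap a gene on the opposite strand. Cxcl17, Ccl28 and Ccl27a had log2 fold changes of 0.27, 0.08 and -0.04 (SE 0.66, 0.37 and 0.28), with overlap between the ages in each. Without young replicate 1 these were -0.36, -0.04 and -0.23 (SE 0.31, 0.42 and 0.27), so that 1 of the 5 tested ligands of this group was above 0, against 3 with all 4 libraries. Windows shared with other genes made up 45.0% of Ccl27a and 98.1% of Ccl27b, and Ccl27b was at 0. Ccl20, the CCR6 ligand, had 4 counts in aged replicate 2 and 0 in the other libraries.

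Levels were next compared between ligands per length. The CPM divided by the kilobases of merged exon (RPKM), the scale on which genes can be compared, averaged 36.6 for Cxcl14, 29.1 for Ccl5, 21.9 for Cxcl12, 21.7 for Cxcl15, and 11.3 each for Cx3cl1 and Ccl11 over the 4 libraries. Without young replicate 1 the mean level of Ccl5 was 3.97 RPKM and the order began with Cxcl14 at 44.4 RPKM, Cxcl15 at 25.1 RPKM and Cxcl12 at 23.1 RPKM, followed by Cx3cl1 and Ccl11 at 13.1 RPKM each. Cxcl12, the CXCR4 ligand of fibroblasts, lies on chromosome 6 (117168535 to 117181367) and measured 195 and 204 CPM in the aged and 149 and 168 CPM in the young libraries. Both aged libraries lay above both young ones (log2 fold change 0.33, SE 0.14, edgeR adjusted p = 0.501), and the value was 0.25 (SE 0.21) without young replicate 1.

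Cxcl14, a constitutive chemokine of epithelium and stroma (chromosome 13, 56288643 to 56296551), measured 81.1 and 88.4 CPM in the aged and 24.1 and 73.8 CPM in the young libraries. Cx3cl1, or fractalkine, a membrane-tethered ligand of CX3CR1, measured 55.1 and 51.1 CPM in the aged and 22.2 and 48.5 CPM in the young libraries. In both genes young replicate 1 was the low library, and young replicate 2 lay near the aged ones. Their log2 fold changes of 0.79 (SE 0.56) and 0.59 (SE 0.41) became 0.20 (SE 0.17) and 0.13 (SE 0.15) without young replicate 1. Cxcl16, the membrane-bound ligand of CXCR6, went the other way, with 17.4 and 17.3 CPM in the aged and 45.1 and 9.77 CPM in the young libraries. Its log2 fold change of -0.66 (SE 0.75, edgeR adjusted p = 0.72) became 0.83 (SE 0.19, edgeR adjusted p = 0.286). Cxcl16 (chromosome 11, 70453983 to 70459984) overlaps Zmynd15 on the opposite strand.

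The ligands grouped here as neutrophil chemokines, Cxcl1, Cxcl2, Cxcl3 and Cxcl5, bind CXCR2 and were scarce. Cxcl15, placed with the epithelial ligands, is not among them. Cxcl1 was counted 64 and 69 times in the aged and 60 and 91 times in the young libraries, or 0.783, 0.775, 0.732 and 1.23 CPM. The young values enclosed the aged ones (log2 fold change -0.33, SE 0.42, edgeR adjusted p = 0.746, and -0.66, SE 0.35, without young replicate 1). Cxcl2 had 3 and 5 counts in the aged against 7 and 11 in the young libraries, Cxcl3 had 0 to 6 and Cxcl5 had 1 to 4. With all libraries these 3 ligands had too few counts to be tested, and no difference is read for them. Both aged libraries of Cxcl2 lay below both young, with the aged counts near the 3-count floor. Without young replicate 1 Cxcl2 entered the test, with a log2 fold change of -1.65 (SE 0.97). Neutrophil markers were low throughout, summing to 3.67 to 5.37 CPM.

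The receptors were listed to set the ligands beside the cells that respond to them. Of 17 signalling receptors 13 were tested, 2 with a log2 fold change above 0 and 11 below (47.0% of all genes were above 0). Scaling by total counts only gave 0 and 13. None passed an adjusted p of 0.05 by edgeR or DESeq2, or an unadjusted edgeR p of 0.05. The median of these receptors was -1.81 with 4 libraries and 1.69 without young replicate 1, when 13 of 15 were above 0 (52.0% of all genes). Young replicate 1 was highest in 11 of the 13 (34.1% of all genes). Ccr7 measured 0.294 and 3.03 CPM in the aged and 105 and 0.366 CPM in the young libraries, and Cxcr5 measured 0.269, 4.31, 25 and 0.0813 CPM. Cxcr4, the CXCL12 receptor, measured 6.9 and 12.8 CPM in the aged and 42.8 and 6.26 CPM in the young libraries. The log2 fold changes of Ccr7, Cxcr5, Cxcr4 and Ccr2 were -4.98, -2.45, -1.32 and -0.02 (SE 2.72, 2.49, 0.98 and 0.23), and 2.18, 4.79, 0.65 and 0.08 (SE 1.48, 2.06, 0.44 and 0.24) without young replicate 1. The library with the most Ccr7, young replicate 1, also had the most Ccl19, at 50 counts. Its 0 counts of Ccl21a are not read as an absent transcript, for the reason given above.

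All 5 atypical receptors listed (Ackr1 to Ackr4 and Ccrl2), which bind their ligands without the usual signal, had log2 fold changes above 0 (median 0.38). Without young replicate 1, 3 of 5 were above 0 (median 0.13). Of all genes 47.0% and 52.0% were above 0 in these fits. Ackr3, which takes up CXCL12, measured 17.6 and 16.6 CPM in the aged and 6.93 and 14.7 CPM in the young libraries (log2 fold change 0.66, SE 0.41, and 0.22, SE 0.18, without young replicate 1). Of the CXC chemokines stored in platelets, whose symbols fall outside the rule, Pf4 had an unadjusted p under 0.05. It measured 8.89 and 7.97 CPM in the aged and 5.12 and 4.07 CPM in the young libraries, without overlap (log2 fold change 0.88, SE 0.25, edgeR adjusted p = 0.426, and 1.05, SE 0.25, without young replicate 1). Ppbp had a log2 fold change of 1.35 (SE 0.54, edgeR adjusted p = 0.491), and of 1.69 (SE 0.63) without young replicate 1.

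**Figure D4:**
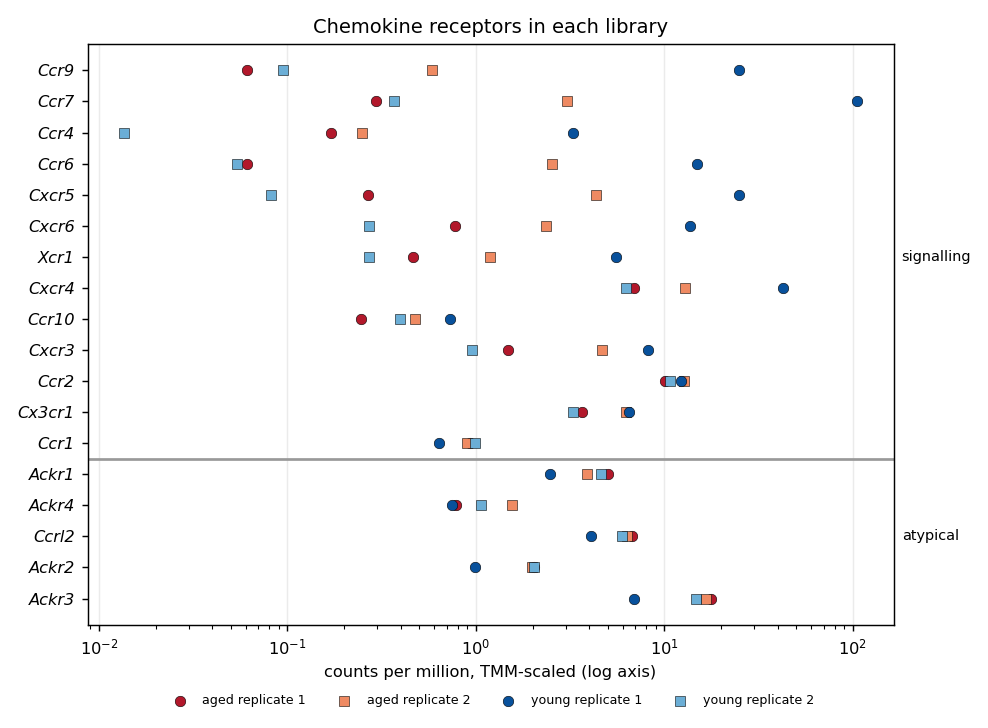
TMM-scaled CPM, on a log axis, of the tested chemokine receptors in each library; each point is 1 library and the grey line parts the signalling from the atypical receptors. Ccr7 of young replicate 1, at 105 CPM, lies apart from the other libraries, and Ccr2 lies between 10.1 and 12.7 CPM in all 4.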

How the data were processed

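Whole MFP tissue of 4 samples had been lysed, and strand-specific libraries were made after removal of ribosomal RNA. What the authors deposited is a table of unnormalized counts, 1 whole number for each gene and sample. Per the submitters' processing notes featureCounts and R 3.6.1 were used, with the builds GRCm38 and hg38 named. The aligner, the annotation and the strand and multi-mapping settings are not given in the sources used here. Samples were assigned to age from their titles.

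Counts were tested across all 22485 genes kept by filterByExpr (minimum count 10) with edgeR 4.0.16 (quasi-likelihood test, TMM scaling, age as the term, Benjamini-Hochberg over all genes, threshold 0.05) in R 4.3.3 with limma 3.58.1. Fold changes are log2 of aged over young from the edgeR fit at its default prior count, and SE is the fold change over the square root of F. A prior count of 2 was used for the log2 CPM values only. An exact permutation of 2 against 2 samples cannot go below p = 0.333, so none is given. Each p-value sets the age difference of a gene against a spread between these samples that the fit moderates across genes. RPKM used merged exon lengths of GENCODE M21, whose annotation held all 46 identifiers. Shared windows of 50 bases were counted against its transcript sequences. The copies on the reference scaffolds were not among those sequences, so each share of windows given is a minimum. Promoters came from RefSeq. The procedure was tested on simulated data.

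The members, the role and marker lists and the tests were chosen with earlier results of these data known. Named were Ccl19, Ccl21a and Cxcl13, ligands with an unadjusted p under 0.05, the 6 with the highest mean RPKM, and the highest and lowest fold change in each role, and among receptors those with an unadjusted p under 0.05 and Ccr7, Cxcr5, Cxcr4 and Ccr2. Alternatives were other scalings and filters, DESeq2 1.42.0, a replicate block, removal of mitochondrially encoded genes and leaving out each sample. The crossed block and DESeq2 without young replicate 1 were added after seeing the data. Of the signalling receptors, 1 is not reported here.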

Additional observations from a re-analysis of the deposited data

How the results depend on the processing

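No ligand was called in any edgeR alternative, and DESeq2 called 2 ligands (865 of all genes), while 3 passed an unadjusted p. Scaling by total counts only moved the median of all genes from -0.04 to -0.22 and that of the monocyte and macrophage ligands to -0.11. With that scaling both aged libraries lay above both young in 6 ligands and below both in 3, against 8 and 2 with TMM. With no filter on low counts the median was -1.65 for eosinophil and type 2 ligands and 0.36 for neutrophil ligands. No source says that equal replicate numbers mark shared animals, and the deviations of same-numbered samples correlated at -0.49. With the replicate block, 0 ligands were called and the log2 fold change of Ccl19 was 0.27 and of Cxcl9 0.08; with the crossed block they were 0.06 and 0.08. Leaving out each sample in turn, by edgeR or, for young replicate 1, also by DESeq2, called 0 to 2 ligands. The log2 fold change then ranged from -1.52 to 2.96 for Ccl19, -7.21 to 1.16 for Ccl22, -4.58 to 1.96 for Ccl5, -0.66 to 0.10 for Cxcl1, -2.07 to 1.26 for Cxcl10, -4.75 to 3.41 for Cxcl13, -1.37 to 0.83 for Cxcl16, -0.51 to 0.69 for Cxcl9 and -1.98 to 1.19 for Xcl1. The medians ranged from -1.11 to 0.98 for CXCR3 ligands, -0.23 to 0.23 for epithelial, -2.73 to 3.18 for lymphoid, -0.08 to 0.44 for monocyte and macrophage, -0.66 to 0.10 for neutrophil ligands and -1.98 to 1.19 for Xcl1 alone. Leaving out young replicate 1 reversed 8 of the 17 named ligands, and the cause was not tested. Ccl11 (1.28 to 1.64), Cxcl15 (1.22 to 1.43) and Ccl2 (-1.78 to -0.89) kept their direction whichever sample was left out. So did Ccl8 (0.77 to 2.98), Cxcl12 (0.25 to 0.44), Ccl25 (-0.32 to -0.27), Cx3cl1 (0.13 to 1.27) and Cxcl14 (0.20 to 1.82). In each of these ligands both aged libraries lay on the same side of both young ones. Leaving a sample out could therefore hardly reverse them, and no support is drawn from it. With 2 samples an age, leaving 1 out assumes that the lone sample varies like the other age.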
